A study of Mus musculus with 12 samples.

Results

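The 9 genes Drd1, Drd2, Adora2a, Ppp1r1b, Pde10a, Rgs9, Rarb, Adcy5 and Serpina9, of 32285 genes counted, were followed in nuclei of the mouse left hippocampus profiled by single-nucleus RNA sequencing. They were chosen by name, as genes of dopamine and adenosine signaling in the striatum, by a rule that uses no measured value, although earlier results of these data were known when they were proposed. Their unique molecular identifier (UMI) counts were summed per library over all inhibitory nuclei, which had at least 1 UMI of Gad1 or Gad2, and over the nuclei that passed a gate of at least 1 Rgs9 UMI and at least 3 Pde10a UMIs. The question was whether the genes differed between genotypes because more or fewer nuclei of a kind were present (makeup) or because the nuclei of that kind held more or less of the transcript (level).

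The 12 libraries came from female mice, 1 mouse each. Among their alleles the 3xTg-AD mice carry human APP with the Swedish mutations and human MAPT with a frontotemporal dementia mutation, both driven by the neuronal Thy1 promoter. WT littermates were the controls. There were 3 libraries of each genotype at 6 months and 3 at 12 months, and all nuclei were sorted by flow cytometry. The replicate numbers were 1, 5 and 9 for 3xTg-AD at 6 months, 3, 7 and 11 for WT at 6 months, 2, 6 and 10 for 3xTg-AD at 12 months, and 4, 8 and 12 for WT at 12 months. Values of a group are given in that order.

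Medium spiny neurons are the GABAergic projection neurons of the striatum, and they fall into a class that carries the dopamine D1 receptor and a class that carries the dopamine D2 receptor together with the adenosine receptor encoded by Adora2a. The D1 receptor (Drd1) and the adenosine receptor Adora2a couple to stimulatory G proteins and raise cyclic AMP, while the D2 receptor (Drd2) couples to inhibitory G proteins and lowers it. Adenylyl cyclase 5 (Adcy5) makes cyclic AMP in these cells, phosphodiesterase 10A (Pde10a) breaks it down, Rgs9 speeds the shut-off of G proteins, and DARPP-32 (Ppp1r1b) is a substrate of protein kinase A that inhibits protein phosphatase 1. Rarb encodes the retinoic acid receptor beta, a transcription factor of striatal development, and Serpina9 encodes a serine protease inhibitor. The hippocampus itself is not rich in medium spiny neurons, which lie in the neighboring striatum.

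On GRCm38, Drd1 lies on chr13:54051183-54055705 (minus strand), Drd2 on chr9:49340627-49408177 (plus) and Adora2a on chr10:75316877-75334784 (plus). Ppp1r1b lies on chr11:98348404-98357796 (plus), Pde10a on chr17:8525372-8986648 (plus) and Rgs9 on chr11:109225355-109298129 (minus). Rarb lies on chr14:16430839-16819156 (minus), Adcy5 on chr16:35154877-35305738 (plus) and Serpina9 on chr12:103994743-104013755 (minus). Other annotated genes overlap Ppp1r1b (1700003D09Rik), Pde10a (Gm15425, Gm17087 and Gm15426), Rarb (Top2b and Gm48162), Adcy5 (Gm25179 and Gm49702) and Serpina9 (Gm28577), so reads from the shared stretches are of uncertain origin.

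The promoters of Rarb, Drd1 and Drd2 are shown because these members stand for the transcription factor and for the receptors that define both classes. Each run is 250 bases before to 50 bases after a RefSeq start site on GRCm38.p6, 5′ to 3′ on the gene's strand. Capitals mark the retinoic acid response element in Rarb and the GC box (GGGCGG or its reverse complement) in the others.
Rarb, chr14:16575427-16575726, minus strand: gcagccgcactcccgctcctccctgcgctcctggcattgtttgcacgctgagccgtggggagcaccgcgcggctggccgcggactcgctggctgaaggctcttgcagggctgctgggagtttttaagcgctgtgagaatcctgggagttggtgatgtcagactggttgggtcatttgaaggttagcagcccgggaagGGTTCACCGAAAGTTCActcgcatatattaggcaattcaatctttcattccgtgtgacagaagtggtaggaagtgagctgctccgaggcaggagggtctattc
Drd1, chr13:54055609-54055908, minus strand: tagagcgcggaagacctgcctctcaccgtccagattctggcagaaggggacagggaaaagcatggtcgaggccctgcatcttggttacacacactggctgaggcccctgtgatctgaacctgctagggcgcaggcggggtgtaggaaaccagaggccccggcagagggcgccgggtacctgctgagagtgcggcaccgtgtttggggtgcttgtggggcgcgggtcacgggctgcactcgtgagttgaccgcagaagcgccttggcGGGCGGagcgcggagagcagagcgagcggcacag
Drd2, chr9:49340153-49340452, plus strand: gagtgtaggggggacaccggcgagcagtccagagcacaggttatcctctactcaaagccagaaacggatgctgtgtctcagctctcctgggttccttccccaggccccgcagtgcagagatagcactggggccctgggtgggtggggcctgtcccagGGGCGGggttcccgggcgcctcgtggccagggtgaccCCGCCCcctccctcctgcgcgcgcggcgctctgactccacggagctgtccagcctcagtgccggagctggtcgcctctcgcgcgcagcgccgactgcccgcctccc
The element in Rarb is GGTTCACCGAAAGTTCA on chr14:16575513-16575529, 53 to 37 bases before the start site, and it was found as a direct repeat of GGTTCA and AGTTCA with any 5 bases between them. Searched on both strands, that repeat was found in 2 of 32851 promoters of the same length (0.00609%), and in 1 of the 8 promoters listed for 6 of the members. The letters searched are those of the Rarb element itself, so the match in Rarb was fixed in advance. The share tells only how rare these exact letters are. The GC box GGGCGG was found in 7 of these 8 promoters and in 35.7% of all promoters. The cyclic AMP response element TGACGTCA was in 0 of the 8 and in 1.79% of all, and its shorter form TGACG, which the longer form contains, was in 0 of the 8 and in 20.8% of all. Promoters of Adora2a, Ppp1r1b and Serpina9 were not analysed here. These matches describe letters, not binding.

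Libraries held 79177051 to 128323908 UMIs and 11352 to 19811 retained nuclei with a median of 4345 to 6698.5 UMIs. Of 184956 retained nuclei, 63424 were inhibitory (3388 to 7453 a library), 28662 passed the Rgs9 and Pde10a gate (1149 to 3922 a library) and 41804 were excitatory. Among 180721 distinct barcodes, 4187 occurred in more than 1 library. Levels are given in UMIs per 1000000 UMIs of the population (CPM). A gene was called when the adjusted p of edgeR's quasi-likelihood test, Benjamini-Hochberg over all genes tested, was under 0.05 and the absolute log2 fold change was over 0.2. Shares of genes called are those of the main test unless another setting is named. Counts of members by DESeq2, at an unadjusted p or without a library have no such share beside them. They are not to be read against the share of the main test. Sums over all inhibitory nuclei cannot tell fewer nuclei of a type apart from less RNA per nucleus.

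In inhibitory nuclei at 12 months, 8 of the 9 members rose in 3xTg-AD, and 621 of 19492 genes tested were called (3.19%). The same 8 members had every 3xTg-AD library above every WT library, as 8.28% of genes tested had, while 15.9% had every 3xTg-AD library below. The median log2 fold change was 2.61 over the 9 members and -0.0026 over all genes. The count depended on single libraries. Without 3xTg-AD replicate 2 or 6, or without WT replicate 4 or 12, 0 members were called. There were 5 calls without WT replicate 8 and 9 without 3xTg-AD replicate 10. With 1 library left out, all 9 differences stayed positive. They ran from 0.69 to 1.10 on the log2 scale for Pde10a, 2.67 to 3.37 for Rarb and 3.44 to 5.83 for Adora2a. Without both 3xTg-AD replicates 2 and 6, replicate 10 alone was set against 3 WT libraries and assumed to vary as they do. All 9 differences were then positive and 0 were called, which with 1 library says nothing of stability.

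Of the receptors, Drd1 stood at 34.3, 31.6 and 12.7 CPM in 3xTg-AD and at 3.28, 6.68 and 4.13 CPM in WT. The log2 fold change was 2.61 ± 0.41 (SE, adjusted p = 0.0190). Replicates 2 and 6 were the high 3xTg-AD libraries, and replicate 10 was the low one, still above all WT libraries. Drd2 stood at 78.9, 70.8 and 28.2 CPM against 16.6, 23.4 and 15.4 CPM, a log2 fold change of 1.81 ± 0.38 (adjusted p = 0.0427). Adora2a stood at 21.1, 19.0 and 5.01 CPM against 0.239, 2.79 and 0.337 CPM, from 1066, 916 and 250 UMIs against 8, 88 and 11. Its log2 fold change was 3.90 ± 0.84 (adjusted p = 0.0459). For both receptors the lowest 3xTg-AD library was again replicate 10, and WT replicate 8 was the highest WT library.

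Of the genes that act downstream of the receptors, Ppp1r1b stood at 29.7, 23.9 and 6.58 CPM in 3xTg-AD against 0.418, 3.39 and 1.32 CPM in WT. It rose by 3.71 ± 0.72 on the log2 scale (adjusted p = 0.0356). Rgs9 stood at 266, 292 and 83.8 CPM against 38.9, 58.3 and 45.6 CPM and rose by 2.30 ± 0.43 (adjusted p = 0.0312). Replicates 2 and 6 were again the high 3xTg-AD libraries for both genes. Adcy5 stood at 278, 278 and 114 CPM against 73.2, 100.4 and 83.2 CPM and rose by 1.51 ± 0.33 (adjusted p = 0.0473). Pde10a stood at 1625, 1643 and 911 CPM against 653, 954 and 945 CPM. Its groups overlapped and it was not called, with a log2 difference of 0.84 ± 0.26 (adjusted p = 0.108). DESeq2, which called more genes in all, called 9 members in this comparison, Pde10a among them.

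The transcription factor Rarb stood at 484, 563 and 175 CPM in 3xTg-AD against 45.4, 83.3 and 40.0 CPM in WT and rose by 2.99 ± 0.47 on the log2 scale (adjusted p = 0.0187). Serpina9 stood at 5.26, 4.99 and 1.60 CPM against 0.239, 0.602 and 0.306 CPM, from 266, 241 and 80 UMIs against 8, 19 and 10. It rose by 3.50 ± 0.56 (adjusted p = 0.0195). It had the fewest UMIs of the members, 1418 over all inhibitory nuclei of the 12 libraries, and its groups did not overlap.

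**Figure D1:**
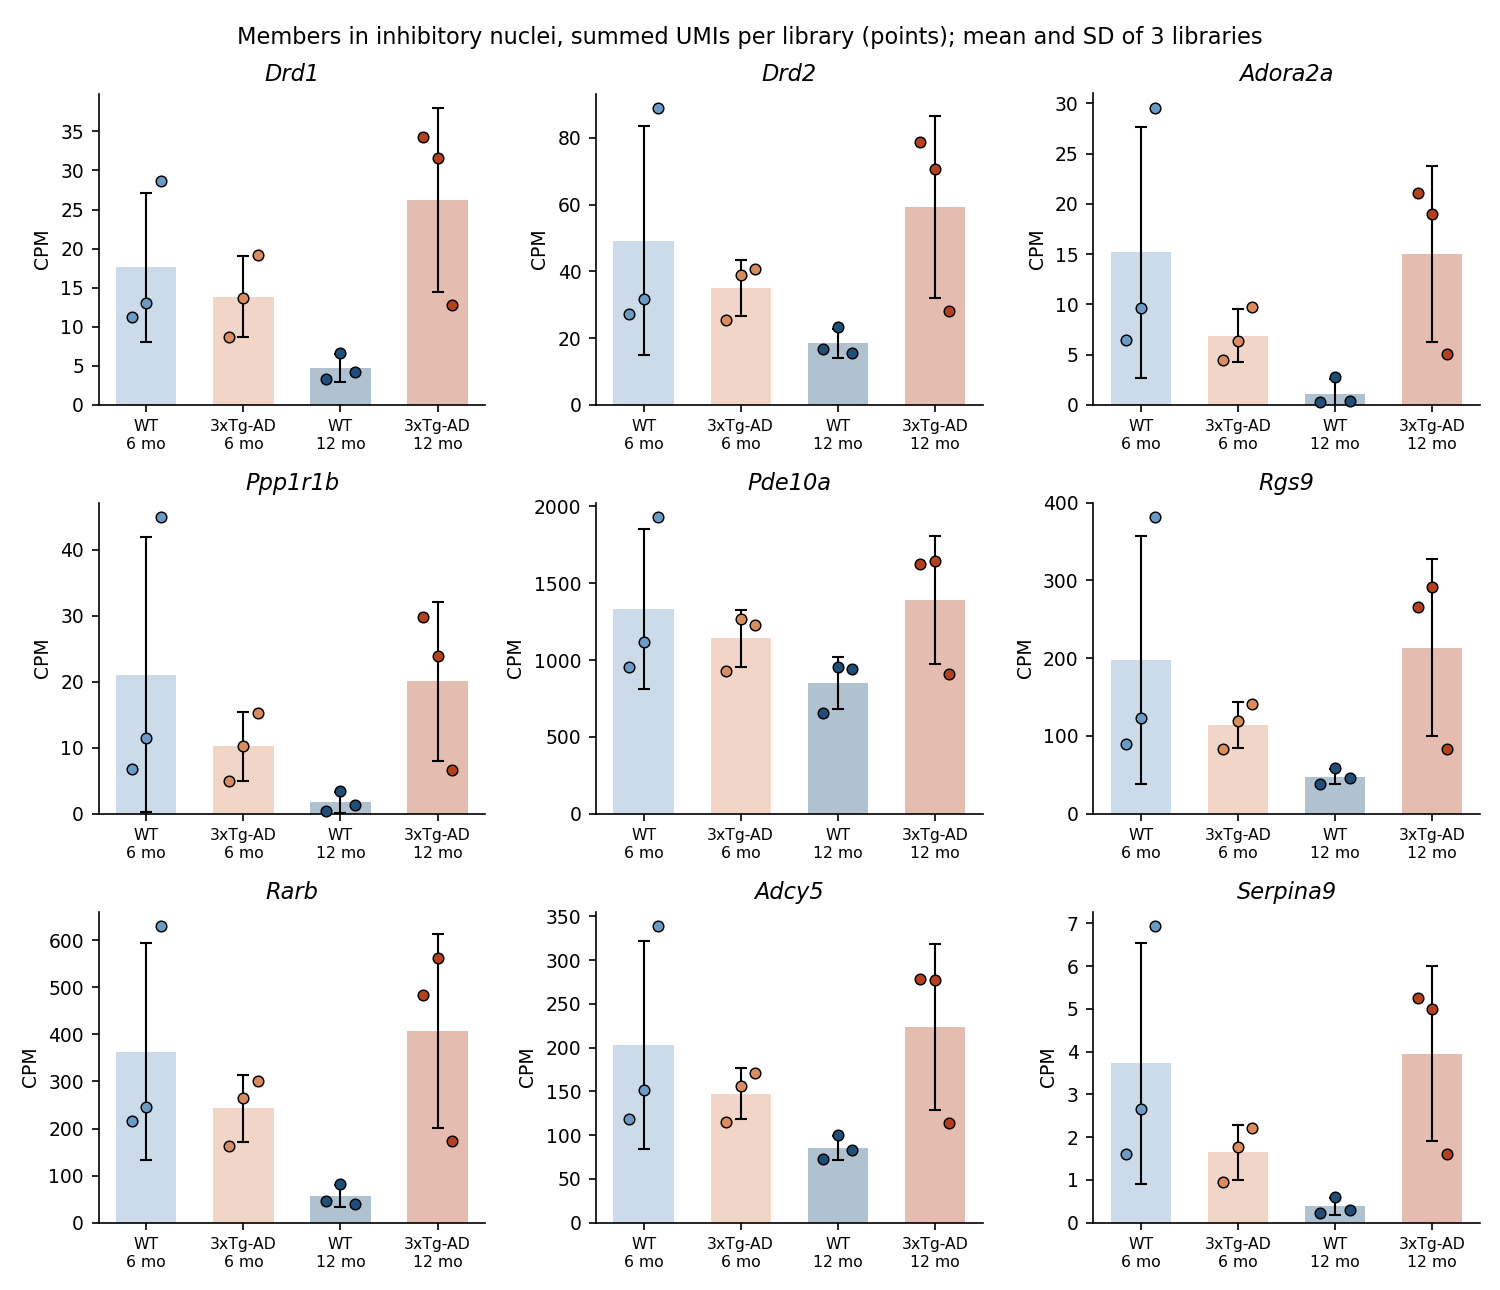
Level of each of the 9 members in inhibitory nuclei (CPM, axes starting at 0) by group, 1 point per library, with the group mean as a bar and its SD as an error bar. At 12 months the 3 3xTg-AD libraries lie above the 3 WT libraries for every member except Pde10a, and at 6 months the groups overlap for all 9.

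At 6 months 0 of the 9 members passed the test in inhibitory nuclei, where 1.04% of genes did. At an unadjusted p under 0.05 there were also 0, and DESeq2 called 0. All 9 differences were negative, from -0.20 for Pde10a to -1.14 for Serpina9, with adjusted p from 0.547 to 0.848, and the groups overlapped for every member (5.3% of genes had every 3xTg-AD library above every WT library and 11.1% below). Rarb stood at 164, 264 and 300.1 CPM in 3xTg-AD and at 216, 245 and 629 CPM in WT. Adora2a stood at 4.49, 6.39 and 9.72 CPM and at 6.40, 9.62 and 29.5 CPM. WT replicate 11 was the highest 6-month library for each member, and without it 7 of the 9 differences turned positive.

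With age, Rarb fell by 2.74 ± 0.51 on the log2 scale in WT inhibitory nuclei from 6 to 12 months (adjusted p = 0.0404), the only member called where 0.43% of genes were. The other 8 had differences of -0.71 to -3.83. At an unadjusted p under 0.05 there were 9 members, and DESeq2 called 6. Rarb's call was lost on leaving out WT replicate 4, 7, 11 or 12, or 3xTg-AD replicate 1, 2, 5 or 9. In turn, 4 members were called without WT replicate 3 at 6 months and 6 without 3xTg-AD replicate 10. In 3xTg-AD mice, 0 of 9 were called with age (0.00489% of genes were), with differences of 0.32 to 1.29, 2 at an unadjusted p under 0.05 and 0 by DESeq2. The test of the change of the genotype difference from 6 to 12 months called 0 of 9 members (0.0929% of genes). The estimates ran from 1.03 for Pde10a to 5.01 for Adora2a, with adjusted p of 0.0780 to 0.250. All 9 had an unadjusted p under 0.05, DESeq2 called 6, 9 were called without 3xTg-AD replicate 10 and 1 without WT replicate 3.

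Makeup differed in the same libraries. The gate took 44.0%, 44.2% and 21.5% of inhibitory nuclei in 3xTg-AD at 12 months and 15.5%, 15.2% and 20.7% in WT. The means were 36.6% ± 13.1 and 17.1% ± 3.08 (SD, n = 3 each), a difference of 19.4 percentage points. The exact two-sided permutation p was 0.1, the smallest that 3 against 3 libraries allow. The groups did not overlap, and 3xTg-AD replicate 10 was within 1 percentage point of WT replicate 12, the highest WT library. At 6 months the shares were 22.4%, 28.1% and 32.4% in 3xTg-AD and 28.1%, 28.8% and 48.5% in WT, a difference of -7.51 points (exact permutation p = 0.4). The change of the difference from 6 to 12 months was 26.9 points, for which the exact permutation test gave p = 0.035, or 0.2 after Benjamini-Hochberg adjustment over 20 share and depth tests. Inhibitory nuclei themselves were 36.3% ± 4.91 of retained nuclei in 3xTg-AD and 27.9% ± 4.92 in WT at 12 months (exact permutation p = 0.2).

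The gate did not hold medium spiny nuclei alone. Of gated nuclei, 49.3% to 78.1% had a Gad1 or Gad2 UMI and 16.6% to 48.5% had a UMI of the excitatory transporters Slc17a6 or Slc17a7. At 12 months the second share was 22.2%, 18.2% and 37.6% in 3xTg-AD and 48.5%, 38.6% and 47.2% in WT. Excitatory markers summed to 65.5 to 154 CPM in 3xTg-AD and 155 to 197 CPM in WT gated nuclei of that age, and astrocyte markers to 408 to 721 and 768 to 967 CPM. The part of these other cells in the results from gated nuclei was not tested. Summed over 15 medium spiny marker genes that are not members, gated nuclei held 1747 to 3817 CPM in 3xTg-AD and 778 to 1266 CPM in WT at 12 months, and 1514 to 2438 and 1718 to 3991 CPM at 6 months. Markers of interneurons, which hippocampal tissue should hold, ran from 1164 to 1938 CPM in the same nuclei. The nuclei are therefore called gated nuclei here, since at 12 months the defining markers of medium spiny neurons were low in the WT ones.

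Rgs9 and Pde10a define the gate, so the other 7 members were tested in gated nuclei. At 12 months all 7 rose in 3xTg-AD, by 1.85 to 3.55 on the log2 scale (adjusted p 0.0134 to 0.0339), where 11.1% of genes were called. Drd1 stood at 50.4, 47.5 and 18.9 CPM in 3xTg-AD and at 3.76, 10.2 and 3.93 CPM in WT, a log2 fold change of 2.92 ± 0.54 (adjusted p = 0.0134). Adora2a stood at 31.5, 29.3 and 10.3 CPM against 0.226, 7.29 and 0.375 CPM, a log2 fold change of 3.49 ± 0.90 (adjusted p = 0.0339). Rarb stood at 703, 837 and 293 CPM against 44.1, 156 and 42.6 CPM, a log2 fold change of 3.09 ± 0.60 (adjusted p = 0.0154). WT replicate 8 was above the other WT libraries for each of these, and the groups did not overlap. Again 0 of 7 were called without 3xTg-AD replicate 2 or 6 or WT replicate 4 or 12, while 6 were called without WT replicate 8. With 1 library left out, all 7 differences stayed positive, at 1.62 to 2.21 for Adcy5 and 2.87 to 6.44 for Adora2a. At 6 months 0 of 7 were called (0.732% of genes; 0 at an unadjusted p under 0.05 and 0 by DESeq2), with differences of -0.38 to -1.07.

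With age in gated nuclei, 0 of the 7 members were called in WT (0.363% of genes), with 7 at an unadjusted p under 0.05 and 5 by DESeq2. In 3xTg-AD 0 were called (0.00534% of genes), with 2 at an unadjusted p under 0.05 and 0 by DESeq2. The change of the genotype difference called 0 of 7 (0.0748% of genes), with 7 at an unadjusted p under 0.05, 6 by DESeq2 and 7 without WT replicate 3 or without 3xTg-AD replicate 10. Without 3xTg-AD replicate 10 the WT age comparison called all 7.

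Gated nuclei were split into D1 nuclei, with a Drd1 UMI and no Drd2 UMI (4801 nuclei), and D2 nuclei, with the reverse (5409 nuclei). D2 nuclei at 12 months had 4 of 5 free members higher in 3xTg-AD (10.2% of genes were called): Adora2a by 2.68, Ppp1r1b by 2.81, Rarb by 2.61 and Adcy5 by 1.91 on the log2 scale. Serpina9 differed by 2.05 ± 0.65 (adjusted p = 0.0599). D2 nuclei held Adora2a at 116, 112 and 60.5 CPM in 3xTg-AD and at 0.837, 46.6 and 1.65 CPM in WT, so 2 of the 3 WT libraries had D2 nuclei almost without Adora2a. The D2 nuclei of the groups also differed in other markers: the 15 medium spiny markers summed to 2945 to 5638 CPM in 3xTg-AD and 717 to 2046 CPM in WT at 12 months, and interneuron markers to 731 to 1599 and 2063 to 2249 CPM. Their part in the members' differences was not tested. Leaving out 1 library gave 0 to 5 calls, with 0 without 3xTg-AD replicate 2 or 6 or WT replicate 4 or 12. In D1 nuclei 0 of 4 were called at 12 months (3.11% of genes; 3 at an unadjusted p under 0.05), with differences of 1.34 to 1.69, and 4 were called without WT replicate 8. At 6 months 0 of 4 were called in D1 nuclei (0.179% of genes, 1 at an unadjusted p under 0.05) and 0 of 5 in D2 nuclei (0.223%, 0 at an unadjusted p under 0.05). Whether D1 and D2 nuclei responded differently was not tested.

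The D1 nuclei of WT replicates 4 and 12, 34 and 45 nuclei, went against their name: the 15 medium spiny markers summed to 828 and 974 CPM in them, against 4209 CPM in WT replicate 8 and 3823 to 4806 CPM in 3xTg-AD, and interneuron markers to 2404 and 2291 CPM, against 1292 and 909 to 1298 CPM. D1 and D2 therefore name a rule on UMIs in gated nuclei and not a cell class. By that rule D1 nuclei were 51.4% ± 3.60 of D1 and D2 gated nuclei in 3xTg-AD and 28.3% ± 3.15 in WT at 12 months (exact permutation p = 0.1, 3 libraries each). They were 43.5% ± 4.15 and 44.2% ± 1.11 at 6 months (exact permutation p = 0.8). The change was 23.8 points (exact permutation p = 0.04, adjusted p = 0.2). The difference at 12 months turned to -13.5 points when gated nuclei were split by Tac1, Pdyn, Isl1, Ebf1 and Eya1 against Penk, Gpr6 and Sp9, marker genes of the D1 and D2 classes, in place of Drd1 and Drd2, and it was 15.5 points with nuclei thinned to 3000 UMIs. The split by marker genes placed far more gated nuclei with D1. Its D1 shares at 12 months were 66.3%, 70.9% and 73.8% in 3xTg-AD and 88.8%, 82.0% and 80.5% in WT. The part of other cells in these shares was not tested.

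To hold the kind of nucleus fixed without the members, marker nuclei were defined after the data were seen as inhibitory nuclei with at least 5 Foxp1 UMIs, 4 Meis2 UMIs and 2 UMIs of Gng7 and Bcl11b together. These genes encode transcription factors and a G protein subunit that are high in medium spiny neurons. There were 9763 marker nuclei. The 11 medium spiny markers that did not choose them summed to 877 to 1480.5 CPM in them outside WT at 12 months and to 453 to 989.5 CPM in WT at 12 months, against 201 to 319 CPM in inhibitory nuclei with no Rgs9 and under 3 Pde10a UMIs. They were 29.2%, 29.3% and 8.38% of inhibitory nuclei in 3xTg-AD at 12 months (1779, 1725 and 513 nuclei) and 0.794%, 3.04% and 1.15% in WT (32, 127 and 39 nuclei). The difference of the means was 20.6 percentage points (exact permutation p = 0.1). At 6 months the shares were 7.17%, 13.2% and 16.7% in 3xTg-AD and 10.9%, 14.0% and 31.5% in WT, a difference of -6.43 points (exact permutation p = 0.5), and the change between ages was 27.1 points (exact permutation p = 0.03, adjusted p = 0.2). The UMI limits of the markers make the share depend on depth: with each nucleus thinned to 3000 UMIs the difference at 12 months was 7.22 points and the change 10.2 points (exact permutation p = 0.05). Thinning lowered the shares of both genotypes. At 12 months they were then 10.1%, 10.1% and 2.51% in 3xTg-AD and 0%, 1.04% and 0.0428% in WT, still without overlap.

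**Figure D2:**
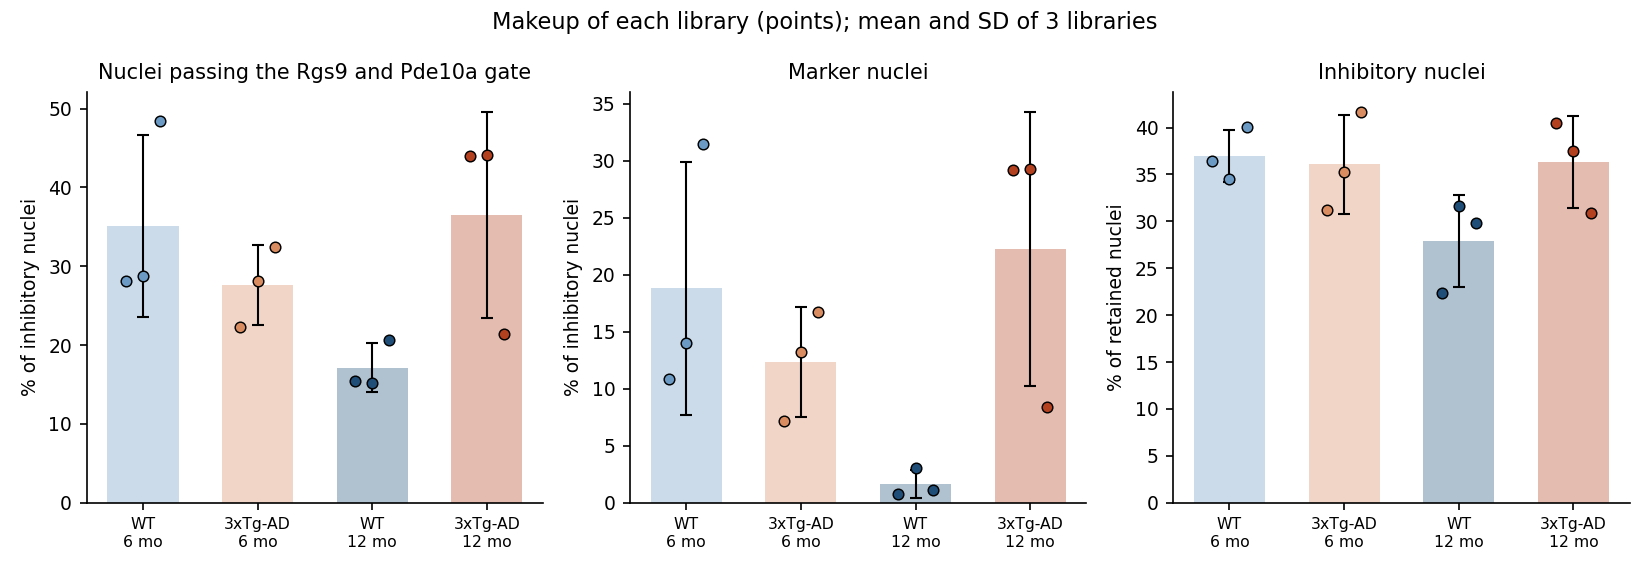
Share of inhibitory nuclei (percent) that passed the Rgs9 and Pde10a gate and that were marker nuclei, and share of retained nuclei that were inhibitory, 1 point per library with the mean and SD of each group. WT libraries at 12 months held 0.794% to 3.04% marker nuclei, and the 3xTg-AD libraries of that age held 8.38% to 29.3%.

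Within marker nuclei at 12 months, 0 of the 9 members passed the test, where 0.103% of genes did. At an unadjusted p under 0.05 there were 2, and DESeq2 called 0. Libraries with under 50 marker nuclei were left out of the fit, so WT was represented by replicate 8 alone, whose spread was assumed to be that of the other groups. The log2 differences were all positive, from 0.25 ± 0.34 for Adora2a to 0.67 ± 0.28 for Drd1, with adjusted p of 0.321 to 0.838. They were smaller than the 0.84 to 3.90 over all inhibitory nuclei, but the difference between both sets was not tested, and a missed threshold with 1 WT library does not show equal levels. Among marker nuclei that also passed the gate, Adora2a and Serpina9 turned to -0.30 and -0.10.

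Among the receptors in marker nuclei, Drd1 stood at 70.0, 59.5 and 53.6 CPM in 3xTg-AD at 12 months and at 41.5 CPM in WT replicate 8. Drd2 stood at 193, 171 and 139 CPM against 128 CPM. Adora2a stood at 54.8, 49.5 and 44.9 CPM against 45.2 CPM, so this library lay inside the 3xTg-AD range. Among the effectors, Ppp1r1b stood at 69.2, 53.9 and 46.9 CPM against 42.3 CPM. Rgs9 stood at 583, 626 and 384 CPM against 478 CPM, and Pde10a at 2895, 2865 and 1906 CPM against 2115 CPM. WT replicate 8 lay inside the range of 3xTg-AD for both Rgs9 and Pde10a. Rarb stood at 1115, 1266 and 1016 CPM against 792 CPM, a log2 difference of 0.62 ± 0.23 (adjusted p = 0.321). Adcy5 stood at 562, 550 and 359 CPM against 380 CPM, and Serpina9 at 12.8, 11.4 and 11.6 CPM against 9.47 CPM. The 32 and 39 marker nuclei of WT replicates 4 and 12 held less, with Rarb at 56.4 and 140 CPM and Adora2a at 0 and 5.05 CPM, and the 15 medium spiny markers summed to as little as 2118 CPM there against 4204 CPM in replicate 8. These nuclei had medians of 15902 and 15122 UMIs, against 7665 to 11561 in the other libraries, and 21.9% and 35.9% of them passed the gate, against 73.2% to 96.6%.

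At 6 months, with 3 libraries in each group, 0 of 9 members were called in marker nuclei (0.356% of genes; 2 at an unadjusted p under 0.05 and 0 by DESeq2). The log2 differences ran from -0.67 ± 0.24 for Serpina9 to 0.03 ± 0.16 for Drd1. Rarb stood at 1084, 1195 and 1083 CPM in 3xTg-AD and at 1079, 1049 and 1411 CPM in WT, a difference of -0.05 ± 0.15. Drd2 stood at 136, 146 and 144 CPM and at 113, 125 and 211 CPM. WT replicate 11 held the highest value of both.

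**Figure D3:**
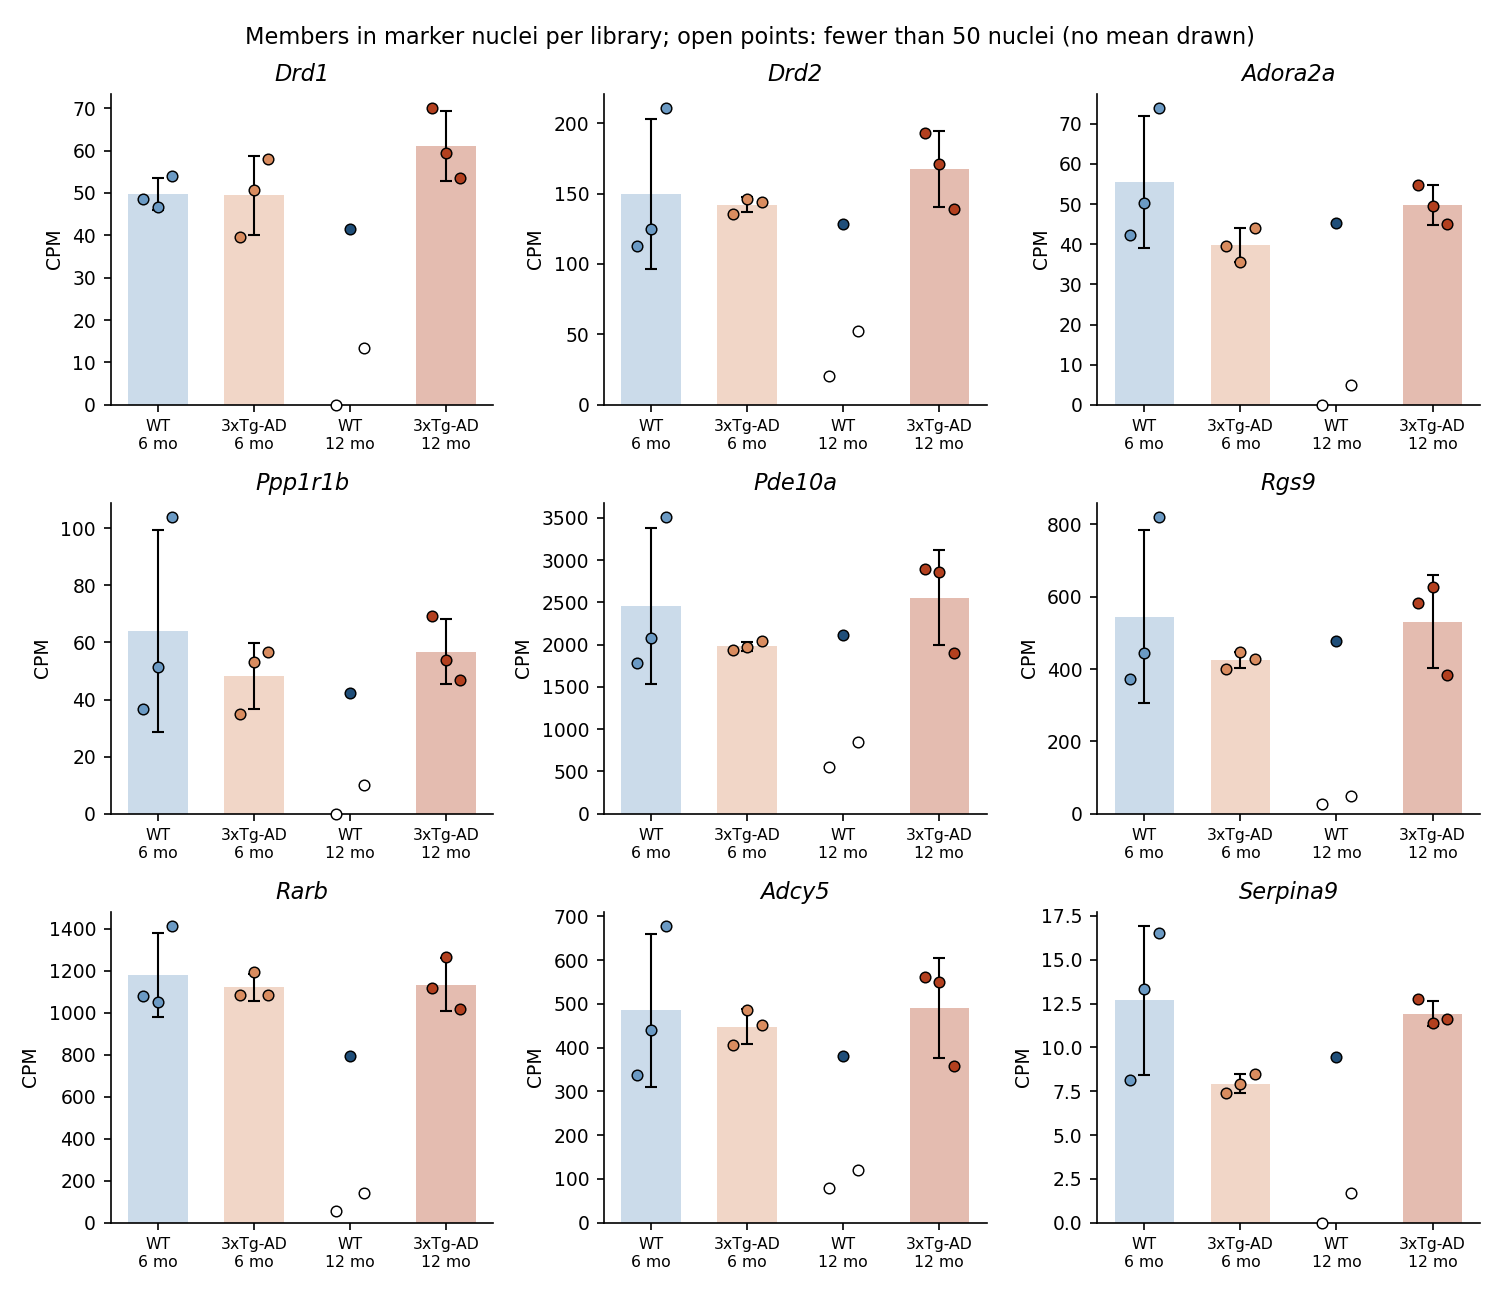
Level of each member in marker nuclei (CPM, axes starting at 0) by group, 1 point per library, with bars for the mean and SD of groups of 3 and open points for libraries of under 50 marker nuclei. The open WT points at 12 months, from 32 and 39 nuclei, lie below all other libraries.

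The difference over inhibitory nuclei was also divided by arithmetic, with counts pooled over the 3 libraries of a group. Marker nuclei held 26.5% of inhibitory UMIs in 3xTg-AD at 12 months and 2.61% in WT. The change of that share alone gave 66.8% of the difference for Drd2, 63.8% for Adora2a and 39.9% for Drd1. It gave 50.6% for Ppp1r1b, 51.1% for Adcy5, 52.3% for Rgs9, 54.7% for Pde10a, 49.8% for Rarb and 54.3% for Serpina9. The arithmetic gave the remainder to levels inside and outside the marker nuclei. Rarb stood at 1167 CPM inside in 3xTg-AD and 471 CPM in WT, and at 132 and 44.7 CPM outside. The WT value inside includes the small libraries described above. The value outside is a mean over several kinds of nuclei. Gated nuclei that are not marker nuclei, with or without Gad1 or Gad2, had a Drd1 UMI in 20.2%, 20.3% and 7.81% in 3xTg-AD at 12 months. In WT these shares were 3.09%, 4.45% and 3.94%. The makeup of the nuclei outside was not tested, so the remainder cannot be read as a change per nucleus of a kind. Divided by the Rgs9 and Pde10a gate instead, makeup gave 23.3% for Drd1 to 26.9% for Drd2 over the 7 members that do not set the gate. The part depended on which nuclei were counted as one kind, and it has no test.

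Outside the gate, inhibitory nuclei without Rgs9 and with under 3 Pde10a UMIs (15182 nuclei) gave 1 call among 5 members tested at 12 months, where 1.56% of genes were called. With all inhibitory nuclei that fail the gate, 4 of 7 members were called (1.64% of genes). In the first set, Rarb stood at 74.0, 92.3 and 73.0 CPM in 3xTg-AD and at 41.3, 51.4 and 32.1 CPM in WT and rose by 0.94 ± 0.16 on the log2 scale (adjusted p = 0.0164). The 3xTg-AD libraries were all above the WT libraries, and the call was lost without 3xTg-AD replicate 2 or 6. Counts were not corrected for ambient RNA. In oligodendrocyte nuclei at 12 months, Rarb had a mean of 32.9 CPM in 3xTg-AD and 9.89 CPM in WT. The means were 107 and 89.3 CPM in astrocyte nuclei and 57.2 and 20.5 CPM in microglial nuclei, and the groups overlapped in both. Drd1 had means of 4.56 and 0.910 CPM in oligodendrocyte nuclei. The part of ambient RNA in the rise of Rarb was not tested, and neither was that of the kinds of nuclei in this set. Drd1 (0.89), Drd2 (0.00), Ppp1r1b (1.17) and Adcy5 (0.21) were not called. At 6 months 0 of 5 were called (0.566% of genes; 1 at an unadjusted p under 0.05 and 0 by DESeq2).

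In excitatory nuclei 0 of 7 members tested were called at 12 months (0.829% of genes; 2 at an unadjusted p under 0.05 and 1 by DESeq2), and 3 were called without 3xTg-AD replicate 10. Drd1 differed by 1.30 ± 0.40 there and stood at 6.64, 3.20 and 2.21 CPM in 3xTg-AD and 1.86, 1.39 and 1.78 CPM in WT, with replicate 2 the highest, as in inhibitory nuclei. At 6 months 0 of 9 were called (1.16% of genes; 2 at an unadjusted p under 0.05 and 0 by DESeq2).

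**Figure D4:**
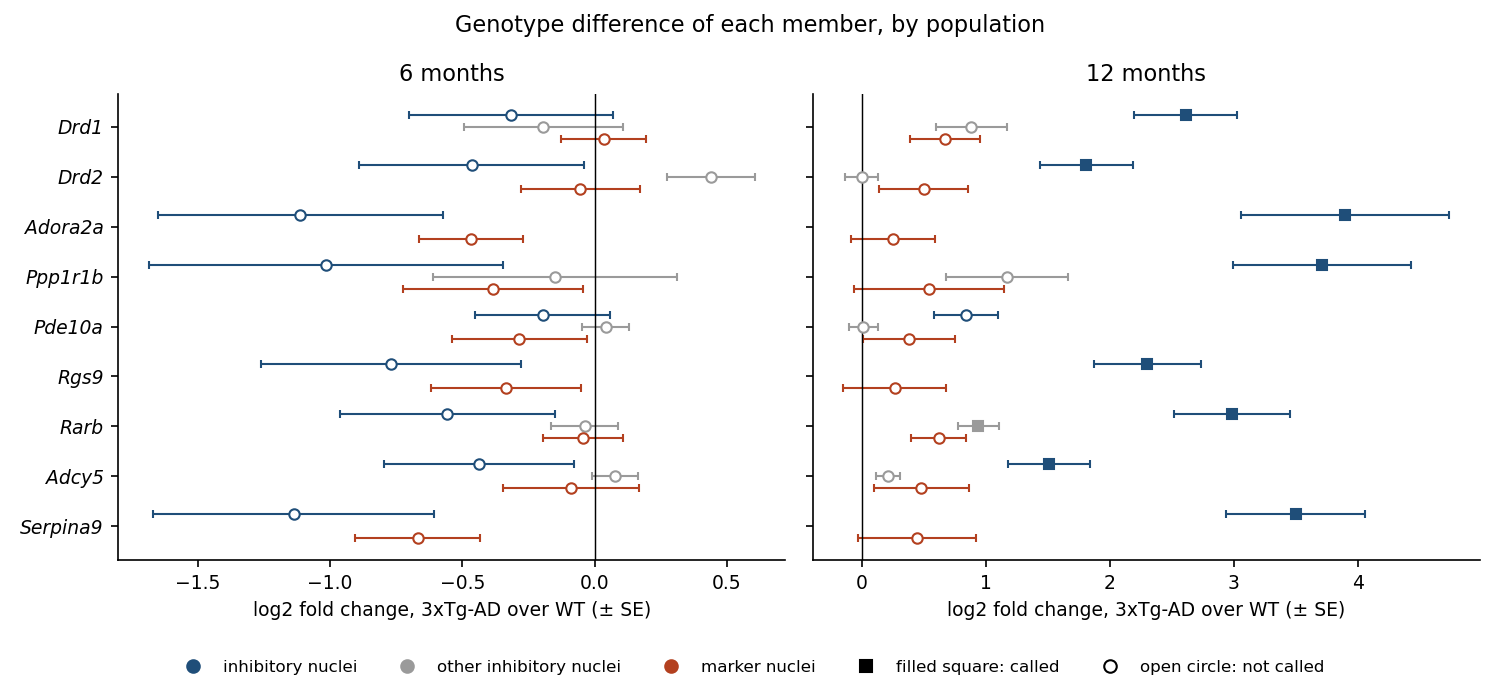
Log2 fold change of each member, 3xTg-AD over WT, with its standard error, in inhibitory, other inhibitory and marker nuclei at 6 and 12 months, with filled squares for calls. At 12 months values reach 3.90 in inhibitory nuclei and stay at or under 0.67 in marker nuclei, where WT is 1 library.

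Every member had its highest median level in marker nuclei when these were set beside inhibitory, excitatory, oligodendrocyte and astrocyte nuclei. Over the 12 libraries, the median level of Rarb was 1081 CPM in marker nuclei, 231 in inhibitory, 70.0 in inhibitory nuclei outside the gate, 30.6 in excitatory, 20.1 in oligodendrocyte and 96.2 in astrocyte nuclei. The ranges of the inhibitory (40.0 to 629), astrocyte (80.2 to 127) and outside-gate nuclei (32.1 to 92.3) overlapped, as did those of excitatory (22.5 to 53.0) and oligodendrocyte nuclei (5.70 to 44.5). Marker nuclei ran from 56.4 to 1411 CPM, so their range overlapped those of inhibitory, astrocyte and outside-gate nuclei. Their lowest value was that of the 32 nuclei of WT replicate 4 at 12 months. Adora2a had a median of 44.5 CPM in marker nuclei, 6.40 in inhibitory, 0.234 in excitatory, 0.710 in oligodendrocyte and 2.20 in astrocyte nuclei. In marker nuclei it ran from 0 to 73.9 CPM. The order was not the same for each member. Pde10a had a median of 1054 CPM in excitatory nuclei and 1037 CPM in inhibitory nuclei, whose ranges overlapped. Ppp1r1b had a median of 10.4 CPM in astrocyte and 8.56 CPM in inhibitory nuclei, whose ranges overlapped as well. Adora2a UMIs were found in 0.198% to 11.6% of inhibitory nuclei a library (median 7390 UMIs) and in 0.0218% to 0.999% of excitatory nuclei (median 8728 UMIs). Ppp1r1b UMIs were found in 0.323% to 21.9% and 0.675% to 4.15%. The lowest inhibitory share lay within the excitatory range for Adora2a and below it for Ppp1r1b. Whether UMIs at these shares are background was not tested.

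D1 and D2 marker nuclei were compared in the 10 libraries with at least 30 of each. Drd1 and Drd2 chose the nuclei, so the other 7 members were tested, with the library as a block. Adora2a stood at 0 to 1.34 CPM in D1 and at 89.7 to 166 CPM in D2 marker nuclei, a log2 difference of -7.65 ± 0.12 (D1 over D2, adjusted p = 2.79e-21), and its UMIs were in 52.9% to 71.3% of D2 nuclei. The adenosine receptor transcript thus stood with Drd2 in each of the 10 libraries compared. WT replicates 4 and 12 at 12 months were not among them. They had 9 and 11 D2 marker nuclei, of which 0% and 27.3% had an Adora2a UMI. Ppp1r1b was higher in D1 by 0.31 ± 0.06 (adjusted p = 0.000480) and Rarb by 0.32 ± 0.06 (adjusted p = 0.000520). Adcy5 differed by 0.17 ± 0.04, under the fold limit, and Rgs9 (0.09), Pde10a (-0.03) and Serpina9 (0.08) were not called. In all, 3 of 7 members and 9.45% of genes were called.

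The order of Ppp1r1b and Rarb depended on how the classes were told apart. When marker nuclei were split by the same 8 marker genes, Tac1 to Sp9, instead, a choice made after the data were seen, Ppp1r1b differed by 0.15 (adjusted p = 0.118) and Rarb by 0.02 (adjusted p = 0.827), while Adora2a kept a difference of -4.49. Pde10a was then called, lower in D1 by a log2 difference of -0.21 (adjusted p = 6.72e-06), just past the fold limit. Among gated nuclei, 3 of 4 members tested were higher in D1 (17.6% of genes were called): Ppp1r1b by 0.66, Rarb by 0.76 and Adcy5 by 0.47, and the split by the 8 marker genes turned them to -0.47, -0.68 and -0.55, all called. Serpina9, at 0.34 (adjusted p = 0.0674), turned to -0.49 and was called as well (adjusted p = 0.00192). The D1 share of D1 and D2 marker nuclei was 46.9% ± 0.568 in 3xTg-AD at 12 months and 42.9% in WT replicate 8, and 46.6% ± 1.22 and 44.2% ± 3.45 at 6 months (exact permutation p = 0.4).

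**Figure D5:**
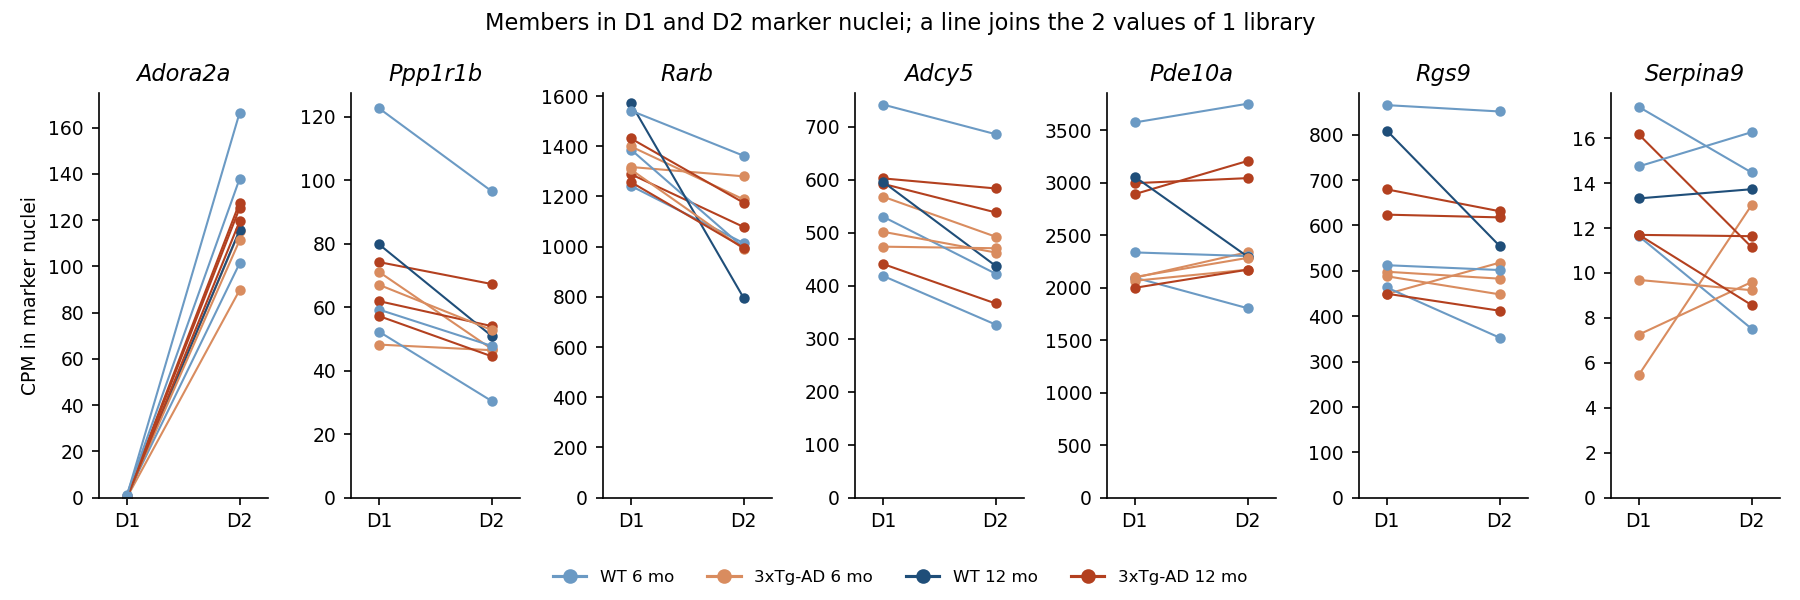
Level of the 7 members other than Drd1 and Drd2 in D1 and D2 marker nuclei (CPM), 1 line per library joining both classes. Adora2a falls from 89.7 to 166 CPM in D2 to at most 1.34 CPM in D1 marker nuclei in all 10 libraries, while Ppp1r1b and Rarb are higher in D1 by 0.31 and 0.32 on the log2 scale.

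The members moved together over the 12 inhibitory sums. Pearson's r of each with the mean of the others ran from 0.938 for Pde10a to 0.994 for Rgs9. This is a description, since within a library all members were summed over the same nuclei at the same depth. Of 11759 other genes compared, the most alike were Jcad (r = 0.995), Gng7 (0.992), Gm13974 (0.992), Sgk3 (0.990), Asb11 (0.990), Dlgap3 (0.990), Gm50024 (0.990) and Pde1b (0.990). Gng7 is one of the genes that chose the marker nuclei.

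The other genes of the pathway were taken from fixed lists and read at 12 months in inhibitory nuclei, where 3.19% of all genes were called. A single call in a list of this size is given as a value of that gene and not as a result about the list. Of the other dopamine and adenosine receptors, 1 of 4 tested rose, Drd3, by 2.13. Of 6 orphan receptors known from medium spiny neurons 3 rose, among them Gpr149 by 1.41 and Gpr6 by 2.63. Of 14 G proteins and RGS partners 2 rose, the gamma subunit Gng7 by 2.41 and Rgs14 by 1.67. Among the other 7 adenylyl cyclases none rose and 1 fell, Adcy1, by 0.67. Of the other 12 cyclic nucleotide phosphodiesterases 3 rose, the calmodulin-dependent Pde1a, Pde1b and Pde1c, by 0.87, 1.60 and 1.58. Of 18 genes of protein kinase A and phosphatase signaling 1 rose, the regulatory subunit Prkar2b, by 0.75. Of 15 retinoid genes tested 1 rose, the retinoid X receptor Rxrg, by 1.42, and of 6 serpins tested Serpine2 rose by 0.75 and Serpina3n fell by 2.13. The median log2 fold change was 0.16 for the receptors, 1.68 for the orphan receptors, 0.40 for G proteins and RGS partners and -0.40 for adenylyl cyclases. It was 0.58 for phosphodiesterases, 0.24 for protein kinase A and phosphatase genes, 0.06 for retinoid genes and 0.05 for serpins, against -0.0026 for all genes.

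Markers of cell classes were read in the same sums. Of 15 medium spiny markers outside the members 10 rose and none fell. Of 6 D1 markers 3 rose (the peptide precursors Tac1 and Pdyn by 2.16 and 1.86, and the factor Ebf1 by 0.75). Of 6 D2 markers 2 rose (the peptide precursor Penk by 2.04 and the receptor Gpr6 by 2.63). Lists share genes, and Gpr6, Gng7 and Rxrg stand in a pathway list and in the medium spiny list. Counted once each, 25 of 150 list genes tested were called. Of 7 markers of intercalated and central amygdala neurons 2 rose, Tshz1 by 1.07 and Foxp2 by 1.38. Of 10 interneuron markers 1 fell, Pvalb, by 0.74, and of 10 markers of other forebrain inhibitory neurons 1 rose, Meis1, by 0.75. The median log2 fold change was 1.54 for medium spiny, 0.39 for D1 and 1.06 for D2 markers. It was -0.02 for amygdala, 0.12 for interneuron and -0.21 for other forebrain markers. Pvalb and Meis1 thus went against the medians of their lists. Markers of excitatory neurons, astrocytes, oligodendrocytes, their precursors and microglia gave 0 calls by edgeR among 23 genes, with 4 at an unadjusted p under 0.05. Their medians were -0.58 for excitatory neurons, 0.60 for microglia, -0.02 for astrocytes, 0.04 for oligodendrocytes and -0.12 for the precursors. At 6 months 0 of 151 list genes were called in inhibitory nuclei (7 at an unadjusted p under 0.05), and 0 of 144 in marker nuclei at 12 months (31 at an unadjusted p under 0.05). Medium spiny markers thus moved with the members, and their part in the members' differences was not tested.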

How the data were processed

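Nuclei of 12 libraries were sorted and captured with 10x Genomics 3′ v3 chemistry. The authors made the deposited UMI counts per gene and nucleus with Cell Ranger 6.1.1 on mm10, before their correction for ambient RNA and their quality filters; whether intronic reads were counted is not given in the sources used here. Counts were read as deposited. With limits taken from the study's methods, a nucleus was retained if it had 500 to 10000 genes, no more than 5% of its UMIs from mitochondria, and log10 genes divided by log10 UMIs above 0.8. The methods word this last limit as a removal of higher scores; it was read here as a minimum. No doublet caller was run; leaving out nuclei with at least 3 UMIs of glial or glutamatergic markers was an alternative.

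UMIs were summed per library and population and tested with edgeR 4.0.16 (R 4.3.3, limma 3.58.1; TMM, filterByExpr, quasi-likelihood test, Benjamini-Hochberg over all genes tested), with DESeq2 1.42.0 as an alternative. Inhibitory, other inhibitory and excitatory nuclei were fitted per age, and gated, D1, D2 and marker nuclei in 1 fit of the 4 groups; the age and interaction tests used all 12 libraries. Libraries with under 10 nuclei of a population (50 for marker nuclei) were left out. Shares were compared by exact two-sided permutation tests, which with 3 against 3 libraries cannot go below 0.1. Scripts were tested on simulated data. Each library is 1 mouse and 1 dissected hippocampus, so p-values measure the spread between libraries, in which mouse and dissection cannot be told apart. In the D1 against D2 tests they measure the spread of that difference between libraries. In marker nuclei at 12 months WT had 1 library and no spread of its own. The UMIs of a member in a library set its precision.

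The 9 members, the gene lists and the tests were chosen with earlier results of these data known, and the marker nuclei and the comparisons within them were added after the data were seen. Named genes were the members, the 8 genes whose level correlated best with the members' mean over the 12 libraries (mean of at least 5 CPM), and up to 3 called genes per list and direction whose groups did not overlap. Promoters are RefSeq sequences (GRCm38.p6), and gene positions are from the annotation of the deposited features' build. Alternatives covered normalization, low counts, nuclei filters, gates, the split into classes, thinning to 3000 UMIs and leaving out each library. Some items are not reported here.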

Additional observations from a re-analysis of the deposited data

Results flagged for a closer look

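Some shares changed between ages. The genotype difference in the gated share of inhibitory nuclei was 26.9 percentage points higher at 12 than at 6 months (exact permutation p = 0.035). For the share of marker nuclei the change was 27.1 points (exact permutation p = 0.03), and for the D1 share of D1 and D2 gated nuclei 23.8 points (exact permutation p = 0.04). The share of gated nuclei with a Gad1 or Gad2 UMI was 72.0% ± 7.08 in 3xTg-AD and 52.1% ± 3.13 in WT at 12 months, and its change from 6 months was 26.5 points (exact permutation p = 0.025). Each was picked out because the genotype labels, permuted within each age, seldom gave a change as large, and each had an adjusted p of 0.2 over the 20 tests. Groups of 3 are too small to test single libraries as outliers.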

How the results depend on the processing

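Mice were not paired between groups, because the sample labels give no such pairing. The D1 against D2 comparisons were paired, with the library as a block. Of 1263 values recomputed under alternatives, 1087 were taken as the same. For log2 fold changes this meant the same direction and the same side of the threshold. For counts of members called it meant an equal or close count, which includes counts that stayed at 0. For shares it meant a change smaller than the SD between libraries, without a change of sign. Leaving out 1 library at a time moved the number of members called from 0 to 9 in inhibitory nuclei at 12 months, from 0 to 6 for WT age and from 0 to 9 for the interaction. It moved the number from 0 to 1 in other inhibitory and from 0 to 3 in excitatory nuclei at 12 months. In gated nuclei it ran from 0 to 7 at 12 months, for WT age and for the interaction, and at 12 months from 0 to 4 in D1 and from 0 to 5 in D2 nuclei. Without both 3xTg-AD libraries richest in marker nuclei, 0 members were called in inhibitory nuclei at 12 months, with 1 3xTg-AD library left and its spread taken from WT. WT marker nuclei at 12 months could not be fitted without WT replicate 8, since no WT library was then left.

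With no filter on low counts, 4 members were called for WT age and 4 for the interaction in inhibitory nuclei, 1 in excitatory nuclei at 12 months, and 5 and 6 in gated nuclei. DESeq2 called 6, 6, 1, 5 and 6. WT age called 2 without doublets and 2 with at least 2 UMIs of Gad1 and Gad2. All inhibitory nuclei outside the gate gave 4 calls at 12 months. For WT age and the interaction in gated nuclei, a gate of at least 2 Rgs9 and 5 Pde10a UMIs gave 4 and 2, a gate with Gad1 or Gad2 gave 2 and 2, and a gate of 5 other markers gave 6 and 2. Splitting by Tac1, Pdyn, Isl1, Ebf1 and Eya1 against Penk, Gpr6 and Sp9 gave 7 calls between D1 and D2 gated nuclei, with Drd1 and Drd2 then among the members tested and Ppp1r1b, Rarb, Adcy5 and Serpina9 turned. Over all genes, calls at 12 months in inhibitory nuclei were 621 as reported, 981 with no filter, 1743 by DESeq2, 1210 with all 12 libraries in 1 fit, 984 without doublets and 22 without both rich libraries; in gated nuclei they were 2079, against 3233 by DESeq2, 1051 with that age alone and 3292 with the stricter gate. DESeq2 called 428 genes in inhibitory nuclei at 6 months, against 205.

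The change in gated share was 17.0 points with the gate of 5 other markers. Thinning to 3000 UMIs gave a D1 share difference of 2.23 points at 6 and 15.5 at 12 months, and the split by those 8 genes gave 3.83 and -13.5. Thinned marker shares differed by 7.22 points at 12 months, with a change of 10.2 between ages, and thinned D1 shares of marker nuclei by -0.83 at 6 and -3.46 at 12 months. Without 1 library the D1 share difference at 6 months ran from -2.88 to 1.26, and that of marker nuclei at 12 months from 3.85 to 4.38.

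These log2 fold changes also turned. In marker nuclei at 6 months, Drd2 was 0.032 with stricter Foxp1 and Meis2 limits, and Rarb was 0.0056 with the gate and 0.013 with those limits. At 12 months with the gate, Adora2a was -0.30 and Serpina9 -0.097, and Rgs9 was -0.015 with the stricter limits. The 8-gene split of marker nuclei gave -0.055 for Adcy5 and -0.15 for Rgs9. Leaving out 1 library at 6 months, inhibitory values ran from -0.71 to 0.17 for Adcy5, -0.61 to 0.24 for Drd1, -0.76 to 0.30 for Drd2, -0.39 to 0.18 for Pde10a, -1.44 to 0.21 for Ppp1r1b, -0.83 to 0.12 for Rarb and -1.12 to 0.15 for Rgs9. In marker nuclei they ran from -0.30 to 0.25 for Adcy5, -0.074 to 0.16 for Drd1, -0.22 to 0.30 for Drd2, -0.48 to 0.081 for Pde10a, -0.66 to 0.20 for Ppp1r1b, -0.12 to 0.12 for Rarb and -0.55 to 0.10 for Rgs9. The D1 against D2 difference of Serpina9 ran from -0.024 to 0.13. The cause of these changes was not tested. Members with few UMIs, such as Serpina9 with 8 to 19 in WT at 12 months, are limited by depth.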
